A study of Musa acuminata AAA Group with 12 samples.

Results

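The steady genes are the 200 genes whose expression varied least over 12 RNA-seq libraries of Cavendish banana pulp. They were chosen from the measured values themselves. Of the 35273 gene rows in each deposited table, 4074 genes had an FPKM from 10 to under 500 in every library and are called eligible here, and the 200 of them with the lowest standard deviation (SD) of log2(FPKM) were taken. FPKM counts the fragments of a gene after division by gene length and by library depth. Because the values chose the genes, their steadiness in these libraries is a description and was not tested.

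The groups were day 7 chitosan-coated fruit (7A), day 7 control fruit (7K), day 1 chitosan-coated fruit (1A) and day 1 control fruit (1K), each with 3 biological replicates (a, b and c). Chitosan, a sugar polymer derived from the shells of crustaceans, dries to a thin film on the peel, and coated fingers were dipped in a 1.25% solution while control fingers had no coating. All fingers of the fruit, in control and coated groups alike, are described as ethylene-treated and are of the AAA Group, Subgroup Cavendish. The sources used here do not say how many fingers made up a replicate. Libraries were made from total RNA of whole pulp, so in every value below fewer cells of a type and less RNA per cell cannot be told apart. The tables hold gene IDs without names, so the labelled tissue was not checked against marker genes.

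A reference gene is a gene whose transcript level stays the same over the conditions of an experiment, and the transcripts of other genes are expressed relative to it, most often in quantitative PCR. Banana is a climacteric fruit. During its ripening, which ethylene starts, starch is turned to sugar, cell walls are loosened and a large part of the pulp transcriptome changes. Genes in common use as plant references, such as actins, tubulins and ubiquitins, are housekeeping genes of the cytoskeleton and of protein turnover. Whether any of them is among the steady genes could not be seen, since none of the IDs matched a gene name.

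A number of fragments behind each FPKM was implied from its confidence interval. The implied fragments summed to 6136363 in 7A_c and to between 11078141 and 16553611 in the other libraries. In the published read statistics only 7K_a has more reads than 7A_c, so the implied fragments do not give the sequencing depth of 7A_c. The median steady gene had 305 implied fragments in 7A_c and 535 to 827 elsewhere. The lowest implied number for any steady gene in any library was 65.3. The libraries 7A_c, 7K_c, 1A_a, 1A_b and 1K_c have a lower read GC percentage in the published read statistics than the rest, and they are called the lower read GC libraries. No pair of libraries held identical values.

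Ma08_g27920 was the steadiest gene. It lies on chromosome 8 from 40020698 to 40024155, in the coordinates of the deposited tables. Its FPKM was 40.2, 41.1 and 37.6 in 7A_a, 7A_b and 7A_c, 39.3, 41.5 and 40.4 in 7K_a, 7K_b and 7K_c, 40.2, 38.2 and 38.0 in 1A_a, 1A_b and 1A_c, and 37.6, 35.5 and 37.8 in 1K_a, 1K_b and 1K_c. The highest library was 1.17 times the lowest, and the groups overlapped except that every 7K and every 1A value lay above every 1K value. The SD of log2(FPKM) was 0.07, beside 0.06 for the counting error implied by the intervals. Ma03_g27920 (chromosome 3, 31144284 to 31153780) came next with an SD of 0.09. It had 23.4, 23.7 and 23.9 in 7A, 23.6, 23.9 and 25.1 in 7K, 24.2, 21.6 and 25.5 in 1A and 26.9, 24.7 and 26.6 in 1K. Its lowest value was in 1A_b and its highest in 1K_a, a ratio of 1.24. Ma10_g02190 (chromosome 10, 7446020 to 7449008) had 23.3, 22.4 and 22.8 in 7A, 23.0, 22.1 and 26.0 in 7K, 24.1, 22.9 and 22.0 in 1A and 20.4, 21.2 and 23.9 in 1K, with an SD of 0.09. It was highest in 7K_c and lowest in 1K_a. Among the first 10 genes, Ma01_g10580 (chromosome 1, 7605865 to 7611103) had the highest level. Its FPKM was 80.7, 81.6 and 73.5 in 7A, 84.4, 84.8 and 78.7 in 7K, 71.5, 72.0 and 81.6 in 1A and 83.7, 81.2 and 72.4 in 1K. In this gene the 5 lower read GC libraries all lay below the other 7.

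The remaining 6 of the first 10 were Ma04_g30610 (geometric mean FPKM 29.9), Ma06_g24650 (34.1), Ma04_g12120 (54.1), Ma10_g06650 (37.3), Ma10_g04560 (67.5) and Ma03_g22840 (25.9). Their SDs ran from 0.10 to 0.11, and their highest library was 1.23 to 1.34 times the lowest. The log2 mean of the 3 steadiest genes had an SD of 0.05 over the 12 libraries and that of the 10 steadiest an SD of 0.04. Both means were more even than any single gene of the list in these libraries, which also chose the genes.

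**Figure D1:**
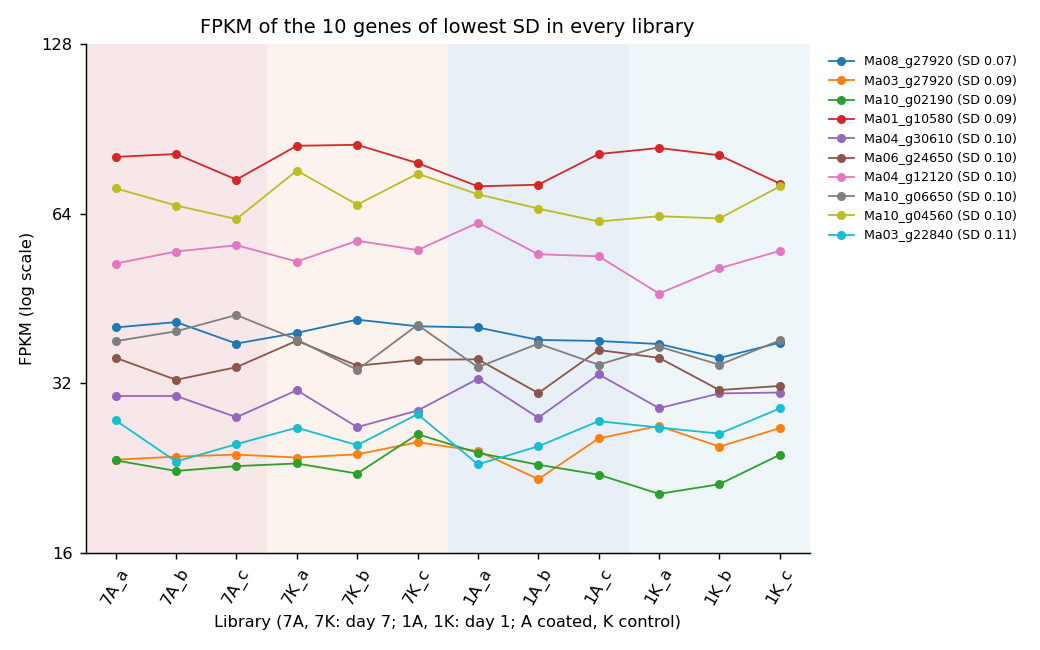
FPKM (log scale) of the 10 steady genes of lowest SD in each of the 12 libraries, with shading for the groups 7A, 7K, 1A and 1K and lines that only join the points of the same gene. Each gene stays within a band whose highest value is 1.17 to 1.34 times its lowest.

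Over all 200 genes the SD ran from 0.07 to 0.19 with a median of 0.16, beside a median of 0.49 over the 4074 eligible genes. The highest library was 1.17 to 1.67 times the lowest, with a median of 1.43, beside a median of 2.74 over the eligible genes. The genes on either side of the limit had nearly the same SD. The last genes inside were Ma03_g01310 and Ma09_g12380, with SDs of 0.1909 and 0.1915. The first outside were Ma08_g03990 and Ma08_g16470, with 0.1920 and 0.1922, and the genes of rank 201 to 400 reached 0.238.

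The steady genes covered a wide range of levels. The geometric mean FPKM was between 10 and 20 for 53 genes (26.5%), between 20 and 50 for 93 (46.5%), between 50 and 100 for 35 (17.5%) and at least 100 for 19 (9.5%). The same classes held 525 (12.9%), 2083 (51.1%), 964 (23.7%) and 502 (12.3%) of the eligible genes. A gene with a mean near the lower bound of 10 is eligible only if it varies little, so nothing is read from the larger share in the lowest class. The median was 31.6 in the steady and 37.3 in the eligible genes. At the upper end, Ma06_g33990 (chromosome 6, 34407221 to 34408652) had an FPKM of 333, 337 and 359 in 7A, 289, 337 and 360 in 7K, 364, 347 and 311 in 1A and 370, 340 and 394 in 1K, with an SD of 0.12. Its lowest library was 7K_a and its highest 1K_c. Ma06_g01810 (geometric mean 339) and Ma07_g01750 (258) followed, with SDs of 0.16 and 0.17. At the lower end were Ma11_g14080 (12.3), Ma04_g03880 (12.8) and Ma09_g02260 (12.9), with SDs of 0.17, 0.14 and 0.18. For Ma11_g14080 the 12 values lay between 10.2 in 7A_b and 14.5 in 1K_c.

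Steady and eligible genes had nearly the same counting error, as implied by the FPKM intervals. The SD implied by the intervals, called the counting SD here, had a median of 0.0607 in the steady and 0.0610 in the eligible genes. Its Pearson r with the observed SD across the 4074 eligible genes, which share the same libraries, was 0.0167. The library with the fewest implied fragments does not have the fewest published reads. Whether the counting SD equals the true counting error was not tested, so ratios to it are relative to the intervals only. The median number of implied fragments per gene and library was 605 in the steady and 614 in the eligible genes. The observed SD was 2.48 times the counting SD in the median steady gene and 7.98 times in the median eligible gene. It lay under 2 times the counting SD in 51 of the 200 steady genes (25.5%) and in 61 of the 4074 eligible genes (1.5%). The 61 include the 51. The rule chose on the observed SD, so the lower ratios of the steady genes follow from the choice. For Ma08_g27920 the ratio was 1.08, the lowest of all eligible genes, and at the other end of the list Ma04_g37990 had 8.91.

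**Figure D2:**
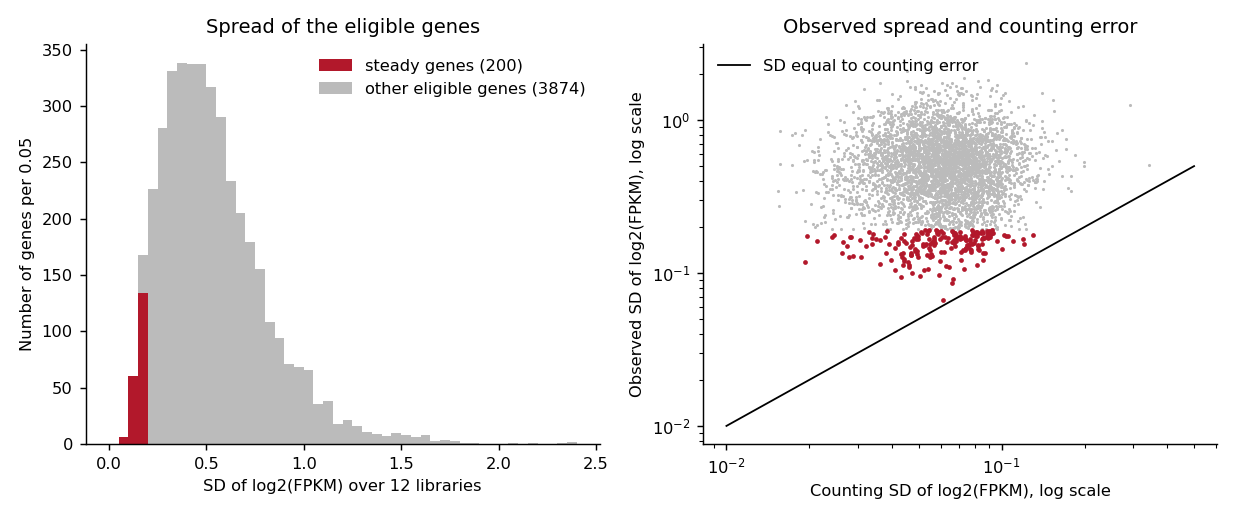
Left, number of eligible genes by the SD of log2(FPKM) over 12 libraries, with the 200 steady genes stacked under the 3874 others. Right, the same SD against the counting SD implied by the FPKM intervals (both axes logarithmic). The steady genes have counting SDs from 0.02 to 0.13, and Ma08_g27920, with a ratio of 1.08, lies nearest to the line of equality.

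The libraries were not all equally close to the gene means. The median deviation of the 200 genes from their own mean, on the log2 scale, ran from -0.07 in 7A_c to 0.07 in 7K_c, against -0.15 in 1A_c to 0.21 in 7K_c for the eligible genes. 7A_c, the library with the fewest implied fragments, held the lowest value of 51 steady genes. Its deviations had the widest interquartile range (0.253, against 0.171 in 7K_a). 7K_c held the highest value of 38 steady genes and 1A_b of only 2. Within the groups the pooled SD of a steady gene had a median of 0.129, and the SD of its 4 group means had a median of 0.117.

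**Figure D3:**
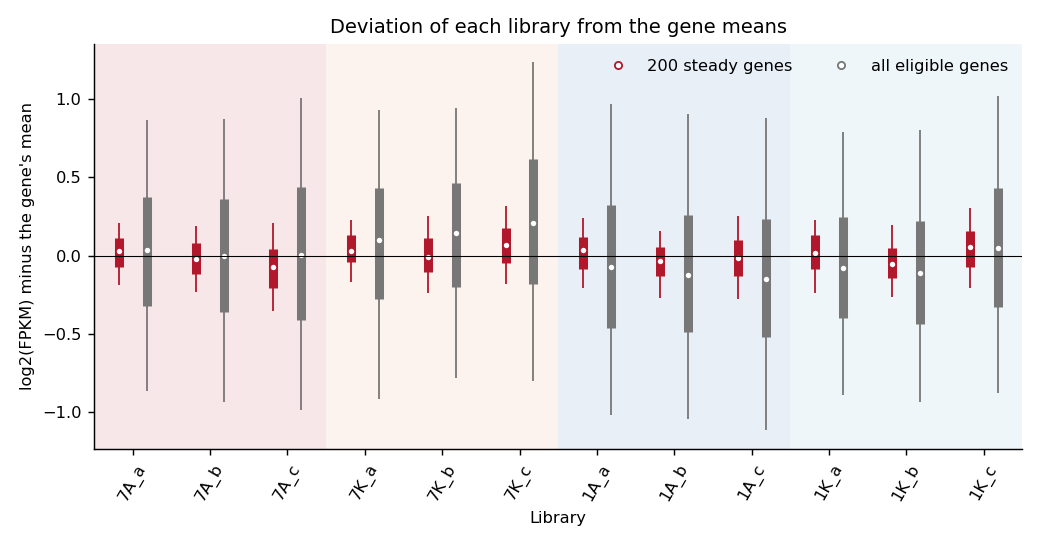
Deviation of log2(FPKM) from the gene's own mean in each library, for the 200 steady genes and for all 4074 eligible genes. Circles are medians, thick bars the middle 50% and thin lines the 5th to 95th percentile of genes. The median of the steady genes stays between -0.07 and 0.07, and that of the eligible genes between -0.15 and 0.21.

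The comparison of day 7 with day 1 asks which pulp transcripts move with ripening, and the steady genes were selected against such a change. Ma03_g22430 (chromosome 3, 27167941 to 27174517) had the most positive mean difference between the days. Its FPKM was 18.8, 19.7 and 21.4 in 7A and 19.7, 18.8 and 22.8 in 7K, against 18.6, 17.9 and 15.7 in 1A and 15.3, 15.3 and 16.1 in 1K. All day 7 values lay above all day 1 values, and the log2 difference over both coatings was 0.30. Ma04_g17720 (0.27) and Ma10_g14960 (0.27) followed. Ma06_g33350 (chromosome 6, 34024182 to 34028927) had the most negative difference, -0.29. It had 13.5, 13.6 and 12.8 in 7A and 13.5, 13.5 and 14.4 in 7K, against 16.8, 15.7 and 17.9 in 1A and 16.3, 15.5 and 17.7 in 1K, again without overlap between the days. Ma01_g13360 (-0.27) and Ma07_g03430 (-0.27) came next.

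The log2(FPKM + 1) difference between the days had a median of 0.34 in coated and 0.37 in control fruit over all tested genes, and of -0.00 and 0.04 over the steady genes. The median log2(FPKM) difference over both coatings was 0.02 in the steady genes, with 111 genes higher and 89 lower at day 7, and 0.17 in the eligible genes. limma with Benjamini-Hochberg adjustment over the 19746 tested genes called 5 steady genes in coated fruit, 2 higher and 3 lower at day 7, where 47.3% of all tested genes were called. These 5, named for having been called, were Ma04_g34680, Ma05_g18890, Ma08_g11650, Ma08_g29390 and Ma09_g21320. In control fruit 8 steady genes were called, 4 in each direction, where 45.9% of all tested genes were called. The selection used these same values, so nothing is read from the low counts. In 55 steady genes (27.5%) the coated day 7 and day 1 libraries did not overlap, beside 50.6% of all tested genes. In 58 (29.0%) the control libraries did not overlap, beside 54.7% of all tested genes. Over both coatings together, 8 steady genes kept all 6 day 7 libraries apart from all 6 day 1 libraries, where 36.3% of all tested genes did.

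These counts moved with the library set and the scaling. Without 7K_b no steady gene was called in control fruit (0), without 7A_c 14 were, and the count was 1 to 4 without 7A_a, 7A_b, 7K_a, 7K_c, 1A_a, 1A_b, 1K_a, 1K_b or 1K_c. The share of all tested genes called in control fruit was 37.4% without 7K_b, 51.2% without 7A_c and in between without any other library. In coated fruit it was 0 steady genes without 7A_a, 1 without 7A_b, 1A_a or 1A_b and 3 without 1A_c or 1K_a, and the share of all tested genes lay between 37.5% without 7A_b and 56.3% without 7A_c. With median-of-ratios scaling 36 steady genes were called in coated and 52 in control fruit, all of them lower at day 7, where 46.7% and 42.8% of all tested genes were called. With scaling to the same sum 6 were called in coated fruit, all higher at day 7, and 3 in control fruit, 2 higher and 1 lower, where 44.7% and 41.2% of all tested genes were called. With the read GC group as a block 42 and 46 were called, where 72.1% and 74.7% of all tested genes were called. With the replicate number as a block over all libraries 2 and 3 were called (46.0% and 44.6% of all tested genes). Same-numbered libraries deviated together among 7A, 7K and 1K and in opposite directions where 1A was concerned. In 7A, 7K and 1K the lower read GC library is replicate c, and in 1A it is replicates a and b, so that replicate c and the lower read GC cannot be told apart among the first 3 groups. In a fit of these 3 groups alone, chosen after seeing the data, 27 steady genes were called between the days in control fruit with the block (18 higher and 9 lower at day 7, 72.2% of all tested genes) and 2 without it (43.5%).

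The comparison of coated with control fruit asks what the coating changes at each day. Ma03_g12090 (chromosome 3, 9341338 to 9346278) had the most positive mean difference among the steady genes. Its FPKM was 39.0, 39.8 and 42.8 in 7A against 33.7, 30.8 and 32.2 in 7K, and 33.8, 37.5 and 37.3 in 1A against 35.5, 29.3 and 32.3 in 1K. The groups did not overlap at day 7 and overlapped at day 1, and the log2 difference over both days was 0.25. Ma02_g14550 came next with 0.20. It had 199.7, 215 and 228 in 7A against 204, 212 and 224 in 7K, and 221, 222 and 241 in 1A against 175, 164 and 178 in 1K, so the groups lay apart at day 1 alone. Ma07_g00040 (chromosome 7, 61693 to 66432) had the most negative difference, -0.28. It had 14.7, 14.1 and 13.3 in 7A against 16.8, 19.6 and 15.9 in 7K, and 14.7, 13.6 and 15.9 in 1A against 19.0, 17.9 and 16.2 in 1K. The coated values lay below the control values at each day, although not across the days, since 1A_c and 7K_c had nearly the same value. Ma07_g07110 followed with -0.25.

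limma with Benjamini-Hochberg adjustment called 0 of the 200 steady genes for coating at day 7, where 0.142% of all tested genes were called, and 7 had an unadjusted p under 0.05. At day 1 it called 0, where 5.63% of all tested genes were called, and 15 had an unadjusted p under 0.05. The interaction of coating and day called 0, where 2.38% of all tested genes were called, with 8 under 0.05 unadjusted. As for the days, the rule had used these same values, so nothing is read from these counts of calls. No other tool was run. The coated and control libraries did not overlap in 41 steady genes at day 7 (11.8% of all tested genes) and in 64 at day 1 (21.6%). Ma09_g05880 was the only steady gene with all 6 coated libraries on the same side of all 6 control libraries over both days, where 0.294% of all tested genes were so parted. It had 17.5, 18.2 and 18.1 in 7A and 18.1, 17.9 and 16.6 in 1A, against 18.5, 20.6 and 22.9 in 7K and 20.7, 22.0 and 20.1 in 1K, and it is named for this pattern. With the read GC group as a block 4 steady genes were called at day 7, 24 at day 1 and 13 for the interaction, where 9.08%, 25.8% and 20% of all tested genes were called. Of the 200 genes, 129 had a lower mean in coated fruit over both days, and the median log2 difference was -0.04 in the steady and -0.10 in the eligible genes.

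The differences between the read GC groups and between the days had similar ranges in the steady genes. The rule bounds both by keeping the SD low, so nothing is read from their likeness. The log2 difference between the 5 lower and the 7 higher read GC libraries ran from -0.31 to 0.32 in the steady genes, beside -2.65 to 2.54 in the eligible genes. The difference between the days ran from -0.29 to 0.30, beside -4.55 to 4.50. The lower and the higher read GC libraries did not overlap in 11 steady genes, where 19.3% of all tested genes did not. Ma01_g05320 (chromosome 1, 3735611 to 3743035) and Ma01_g05330 (chromosome 1, 3743947 to 3749612) were among these 11 and are described for being the only steady genes that lie next to each other, 912 bp apart. Ma01_g05320 had 33.7 in 7A_c, 37.1 in 7K_c, 36.7 and 34.3 in 1A_a and 1A_b and 37.0 in 1K_c, against 28.8 to 33.1 in the higher read GC libraries. Ma01_g05330 had 141 in 7A_c, 133 in 7K_c, 129 and 126 in 1A_a and 1A_b and 156 in 1K_c, against 103 to 123 in the higher read GC libraries. In the published mapping statistics the 5 lower read GC libraries also have the lowest percentages of mapped reads. What the read GC group stands for in the fruit or the sequencing was not tested.

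**Figure D4:**
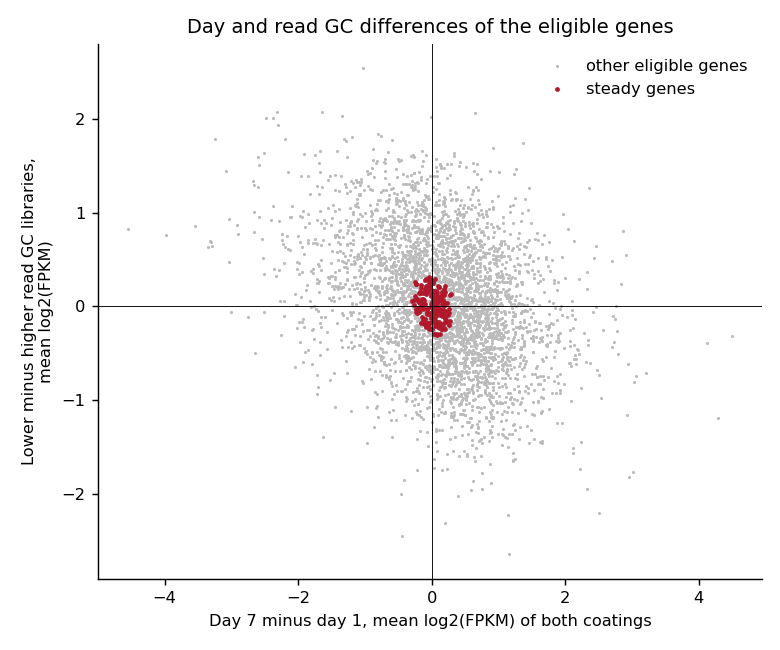
Difference between day 7 and day 1 (x axis, mean of both coatings) and between the lower and the higher read GC libraries (y axis), both in log2(FPKM), for the 200 steady genes and the other eligible genes. The steady genes fill a small patch around the origin that reaches from -0.29 to 0.30 on the x axis and from -0.31 to 0.32 on the y axis.

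Libraries that took no part in a selection show how far a choice carries over. When each library was left out in turn and 200 genes were chosen on the other 11, the left-out value differed from the mean of the 11 by a median of 0.111 (7K_a) to 0.198 (7A_c) on the log2 scale, beside 0.361 (1K_a) to 0.485 (7A_c) for all genes eligible in those 11. Between 169 (without 7A_c) and 189 (without 7A_a) of the steady genes were chosen again. Each round used 11 of the 12 libraries behind the list, so counts of genes chosen again are not held out and follow largely from the ranking. All of the first 100 genes were chosen again in all 12 rounds, and 46 of the genes of rank 101 to 150 were, but only 7 of the genes of rank 151 to 200. Ma03_g01310, the second last gene inside, was chosen again in only 2 rounds.

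A stricter exercise chose 200 genes on the libraries of the coated or the control fruit and measured them in the other treatment. Genes chosen on the 6 coated libraries had a median SD of 0.122 there and of 0.198 in the 6 control libraries, where all genes eligible on the coated side had 0.491. Genes chosen on the 6 control libraries had a median SD of 0.119 there and of 0.212 in the 6 coated libraries, beside 0.523. Of the 200, 81.5% and 85.5% were within the steadiest 25% of eligible genes on the side that did not choose them. The median SD was higher on the side that took no part in the choice in either case. For single genes it reached 0.857 among those chosen on coated and 0.778 among those chosen on control fruit. The choices from the 2 treatments shared 54 genes, of which 49 are among the 200 steady genes, and these 49 include each of the first 10. The steady genes were chosen over both treatments together, so their overlap with these choices follows largely from the rule.

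Which genes were the steadiest depended on how the libraries are scaled. FPKM is relative to all mapped fragments, and the deposited values were used without further scaling. The median-of-ratios factor, which is the median log2 ratio of a library to the mean of all libraries over the 20108 genes above 0 in every library, was 0.20 ± 0.25 at day 7 and -0.20 ± 0.18 at day 1 (SD, n = 6 each). The difference of 0.41 had p = 0.02 (two-sided exact permutation test within coated and within control fruit, adjusted p = 0.027 over 4 such tests, smallest possible p 0.005). It was 0.28 among the lower read GC libraries (2 of day 7 and 3 of day 1) and 0.39 among the higher ones (4 and 3). The same factor over the 4074 eligible genes differed by 0.16 between the days (p = 0.005, exact permutation test, adjusted p = 0.02) and the upper quartile by 0.25 (p = 0.01, exact permutation test, adjusted p = 0.02). The summed FPKM differed by -0.10 in the other direction (p = 0.285, exact permutation test, adjusted p = 0.285). A gene with an even FPKM is therefore lower at day 7 relative to the median gene and not lower relative to the summed FPKM. The shift was not shared by genes of all levels. It was 0.62 in genes with a mean FPKM under 1, 0.52 from 1 to under 10, 0.25 from 10 to under 100 and -0.04 at 100 and more. The lower minus the higher read GC libraries differed by -0.79, -0.63, -0.16 and 0.34 in the same classes, and day 7 holds 2 and day 1 holds 3 of the lower read GC libraries. The part of the read GC group in the shift by level was not tested.

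Of the 200 steady genes, 115 were chosen again when the factors came from the eligible genes, 85 with scaling to the same sum, 71 with the upper quartile and 10 with the median-of-ratios factor of all genes. No steady gene (0) was chosen under the 3 planned scalings together, and the choices by same sum and by median of ratios had 0 of their 200 genes in common. Their median rank under median of ratios was 889 of 4181 eligible genes, and 13 of them left the FPKM limits. Ma07_g01750 (chromosome 7, 1361633 to 1366253) was the steadiest of all genes with scaling to the same sum, with an SD of 0.05, and had rank 137 as deposited, 834 by upper quartile and 1611 by median of ratios, with an SD of 0.43 there. Its deposited FPKM was 232, 223 and 273 in 7A, 226, 255 and 305 in 7K, 286, 273 and 228 in 1A and 246, 251 and 317 in 1K. It was higher in every lower read GC library than in every other. Ma04_g17720 (chromosome 4, 18716533 to 18728370) went the other way, with rank 9 by upper quartile, 141 by median of ratios, 127 as deposited and 584 by same sum. It had 17.5, 16.6 and 15.3 in 7A and 17.9, 17.9 and 16.6 in 7K, against 12.5, 14.2 and 13.5 in 1A and 15.2, 15.0 and 13.9 in 1K. The 10 genes kept by median of ratios, named for that, were Ma05_g28560, Ma11_g06850, Ma03_g08970, Ma04_g22950, Ma04_g17720, Ma05_g25770, Ma01_g08460, Ma10_g22960, Ma01_g03840 and Ma02_g23780. Ma05_g28560 was the highest of these in the ranking as deposited, at 22, and had rank 3 by upper quartile and 164 by median of ratios. Ma08_g27920, first as deposited, had rank 6 with factors from the eligible genes, 58 by upper quartile, 130 by same sum and 540 by median of ratios.

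**Figure D5:**
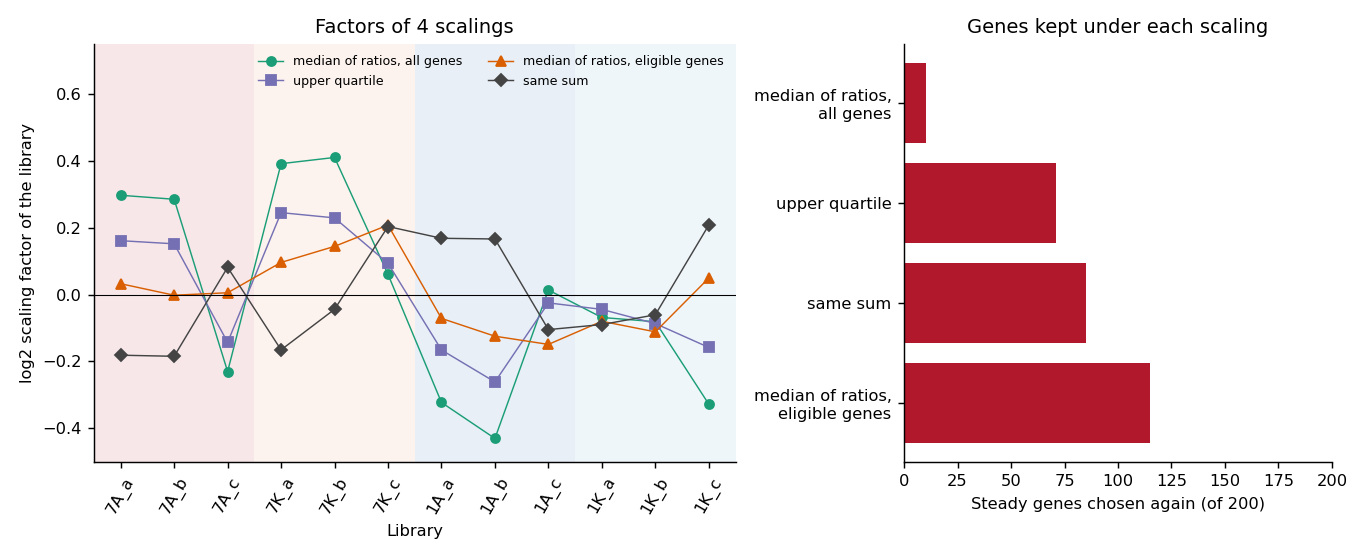
Left, log2 scaling factor of each library under 4 scalings, by group. Right, number of the 200 steady genes chosen again after each scaling. The factors of median of ratios over all genes span 0.84 between libraries and keep 10 genes, while those over the eligible genes span 0.36 and keep 115.

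The ratio of 2 genes in the same library does not change with any scaling of whole libraries. Over the 19900 pairs of steady genes, the SD of the log2 ratio ran from 0.05 to 0.36 with a median of 0.21. The most constant pair was Ma04_g03880 and Ma03_g23000, at ranks 53 and 92. Their ratio lay between 0.0973 and 0.110 in the 12 libraries, although each alone had an SD of 0.14 and 0.16, since both were lowest in 7A_c and highest in 7K_c. The smallest mean SD of ratios to all other steady genes was 0.161, and the 3 genes with the smallest were Ma08_g27920, Ma10_g02190 and Ma10_g04560, which are also among the 10 of lowest SD. Pairs were picked from all pairs for these values, so they are given as a description.

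The position of the genes took no part in the choice. The steady genes were found on all 11 chromosomes, with 26 on chromosome 4, 23 on chromosome 11, 22 on chromosome 8 and 12 each on chromosomes 2 and 5. As a share of the eligible genes this ran from 3.35% on chromosome 6 to 7.26% on chromosome 11. Ma00_g01020 (rank 21) and Ma00_g00380 (rank 154) lie on unplaced sequence, which holds 40 eligible genes. Of the 104 mitochondrial rows only 2 were eligible and 0 were steady genes, too few to read anything from. Of the 198 genes on chromosomes, 110 (55.6%) had their centre in the outer 20% at either end of the span covered by the tables, beside 58.1% of the eligible genes. The locus of a steady gene spanned 5786.5 bp in the median (1012 to 33521), introns included, beside 4580.5 bp in the eligible genes and 5834 bp in the genes of rank 201 to 400.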

How the data were processed

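Read quality was examined by the authors in FastQC before mapping with TopHat (DH Pahang version 2 assembly of Musa acuminata) and quantification in Cufflinks. The deposited values are FPKM per gene and library with their interval bounds, without pooling. How multiply mapped reads were handled is not given in the sources used here, and near-identical genes can share fragments. The single row without an ID and the single ID in more than 1 row were left out of the ranking. The genes, lists and comparisons were chosen with earlier results of these data known.

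The distance between an FPKM and its upper bound was read as 2 counting SDs, and the implied fragments follow as the squared ratio of FPKM to that SD. Both were taken to cover counting error only, which was not tested, and the implied fragments are not the published read numbers. limma 3.58.1 (R 4.3.3) was fitted with a trend to log2(FPKM + 1) of all 12 libraries, over the 19746 genes that reached an FPKM of 1 in 3 or more libraries, with Benjamini-Hochberg adjustment and a threshold of 0.05. The limma p-values weigh a difference of group means against the spread between replicate libraries, an estimate drawn towards a trend over all tested genes. The steady genes were chosen for a low SD of these same values, so their p-values are not valid tests. The limma fit and the ranking were tested on simulated data. Selection and plots used Python 3.11.15, numpy 2.4.6, pandas 2.3.3 and matplotlib 3.10.9. None (0) of the gene IDs matched the names of the RefSeq gene table of another banana assembly, so the planned look at common reference gene families was not made, and no sequences are shown. The deviations of same-numbered libraries from their group means correlated with r of 0.47 to 0.85 in the 9 pairs among 7A, 7K and 1K. In the 9 pairs that include 1A, r was -0.87 to -0.50. For 6 of the 12 libraries the closest correlation was with a library of the same number. Replicate c is the lower read GC library in 7A, 7K and 1K but not in 1A, so these signs cannot tell pairing from read GC. The labels do not state a pairing. The replicate block in the fit of 7A, 7K and 1K is therefore an alternative setting only, and whether the numbers pair fruit was not tested.

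Genes were named by a rule: the 10 of lowest SD, 3 of highest and 3 of lowest level, 2 on either side of the cut, those kept by every scaling, 3 of highest and 3 of lowest difference between days, 2 of highest and 2 of lowest difference between treatments, the most constant pair and the 3 with the smallest mean SD of ratios. Other genes, such as Ma04_g37990, Ma00_g01020 and Ma00_g00380, are named after seeing the results, for the trait given beside the name. Alternatives were other scalings, pseudocounts, filters, measures of spread, blocks and subsets of libraries.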

Additional observations from a re-analysis of the deposited data

How the results depend on the processing

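Of the 200 steady genes, 10 were chosen again with median-of-ratios scaling, 85 with scaling to the same sum, 71 with the upper quartile, 115 with factors over the eligible genes (chosen after seeing the data), 124 with a lower FPKM bound of 20, 98 on control and 115 on coated libraries, and 71 and 76 on the lower and the higher read GC libraries. Other bounds, the other measures of spread and log2(FPKM + 1) kept between 151 and 196, and leaving out a library kept 169 to 189. With the replicate block 184 were chosen again.

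The steady genes called between days in coated fruit (5) and control fruit (8) became 36 and 52 with median-of-ratios scaling (46.7% and 42.8% of all tested genes), 12 and 20 when the test was limited to genes reaching FPKM 10 in all libraries (44.8% and 44.2%), 2 and 3 with the replicate block (46.0% and 44.6%) and 42 and 46 with the read GC block (72.1% and 74.7%). The control count was 3 with scaling to the same sum (41.2%), and in the 7A, 7K and 1K libraries alone 27 with the replicate block (72.2%) and 2 without it (43.5%). Leaving out a library gave 0 to 7 in coated and 0 to 14 in control fruit, and 0 for coating and for the interaction. For coating at day 1, 2 genes were called with that FPKM filter (9.25% of all tested genes) and 24 with the read GC block (25.8%), which also called 4 at day 7 and 13 for the interaction. The replicate block changed no other count of calls.

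The difference between days in the median-of-ratios factor was 0.36 to 0.48 with a library left out, and the summed FPKM gave -0.10. The median SD of the steady genes was 0.32 with median-of-ratios scaling. It was 0.15 to 0.16 without any single library. Of 527 SDs of the 31 named genes under the alternatives, 34 moved by more than the spread within groups, all upward and all under other scalings. 7A_c had the fewest implied fragments, although not the fewest published reads. The causes were not tested.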
